A study of Drosophila melanogaster with 10 samples.

Results

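The X chromosome of *Drosophila melanogaster* is present in a single copy in males, and in the soma its transcription is raised by the dosage compensation complex. In the male germline that complex is not active, and genes with high and testis-specific expression are known to be scarce on the X chromosome. Spermatocytes transcribe a large programme of testis-specific genes ahead of meiosis, and tBRD-1 is a bromodomain protein of these cells. The X genes described here are 1873 of the 11983 genes that had a probe set paired with exactly 1 gene. They are the genes placed on X by the gene annotation, each represented by its probe set with the highest mean log2 signal over all arrays. The comparison set was 10016 autosomal genes, made up of 2205 genes of arm 2L, 2428 of 2R, 2344 of 3L, 2974 of 3R and 65 of chromosome 4. The question was whether X genes changed less or more often in *tbrd-1* mutant testes than autosomal genes of like brightness in wild-type testes.

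Whole adult testes were compared on Affymetrix Drosophila Genome 2.0 arrays, with 5 arrays of homozygous *tbrd-1* mutants and 5 arrays of wild-type flies of the strain *w1118*. Flies of both genotypes were 0 to 2 days old and were kept on standard medium, and each array carried independent RNA from the testes of 25 animals. The mutants are homozygous for 1 allele, in which a transposon that carries a copy of *white* is inserted in *tbrd-1*, and whether both strains carry the same X chromosome is not given in the sources used here. In such whole organs a smaller number of cells of a type and less RNA per cell cannot be told apart.

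*tbrd-1* itself, on arm 3R, had signal intensities of 14, 14, 16, 15 and 10 on the mutant arrays, against 758, 975, 692, 881 and 630 on the wild-type arrays. Its log2-fold change, the mean log2 intensity of the mutant minus that of the wild-type, was -5.83 (standard error 0.15, limma adjusted p = 4.4e-10). Every library thus carried the *tbrd-1* signal its label calls for. Of the germ cell markers, *Mst77F*, *ProtB* and *bol* were bright on all arrays, whereas *vas* and *bam* were dim. Accessory gland genes were as bright in the mutant, with a summed intensity of 69769 to 77383 over 5 genes, as in wild-type, with 70912 to 77312. The 6 muscle genes measured had log2-fold changes of -0.42 to -0.28 and a summed intensity of 3382 to 4149 in the mutant and 4109 to 5534 in wild-type, and for 2 of them, *Mlc1* and *Mlc2*, all mutant arrays were below all wild-type arrays. The summed intensity of 15 gut genes lay between 476 and 5667 on the mutant arrays and between 514 and 20192 on the wild-type arrays. It was 5667 on mutant replicate 3, and 20014, 20192 and 7146 on wild-type replicates 1, 3 and 4, and the other 6 arrays had 476 to 1022. *Ebp* and *EbpII*, genes of the ejaculatory bulb, summed to 11340, 21795 and 15394 on mutant replicates 2, 4 and 5 and to 8531 and 19413 on wild-type replicates 2 and 3, and to 80 to 334 on the other arrays. Calls of up- or down-regulation that were lost when the 4 arrays bright in gut enzymes or the 5 arrays bright in *Ebp* were omitted are named beside the genes, with the values from the smaller number of arrays.

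In *tbrd-1* mutant testes fewer X genes were down-regulated than autosomal genes of the same brightness, while X genes with a bright signal were more often higher. A gene is called significant here where its p-value from limma, adjusted by Benjamini-Hochberg over all probe sets, did not exceed 0.05, and up- or down-regulated where the change was also 2-fold or more. Of the X genes 34 were down-regulated, which is 1.82%, against 332 of the autosomal genes, which is 3.31%. The percentage over all X and autosomal genes together was 3.08%. Up-regulation was called for 31 X genes, or 1.66%, and for 133 autosomal genes, or 1.33%, against 1.38% over all genes. The other 1808 X genes were not called.

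X genes were dimmer than autosomal genes, with a median wild-type log2 intensity of 7.12 on X and 7.62 on the autosomes. All X and autosomal genes were therefore divided into 10 classes of equal size by their mean log2 intensity in wild-type. The number of X genes expected was taken from the share of autosomal genes called in each of these deciles. Given their brightness, 64.1 X genes were expected among the down-regulated ones, so that the 34 found were 0.53 times the expected number. Among the up-regulated ones 27.4 were expected, and the 31 found were 1.13 times that number. This ratio is a description without a test, since genes are not replicates. Set in the same way against the other autosomal arms, the ratio for down-regulated genes was 1.00 for 2L, 0.91 for 2R, 1.01 for 3L and 1.06 for 3R. For up-regulated genes it was 0.88, 1.25, 0.86 and 1.00 for these arms, so that the value of X lay within their range. Chromosome 4 had 2 down-regulated genes, too few for a comparison.

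**Figure D1:**
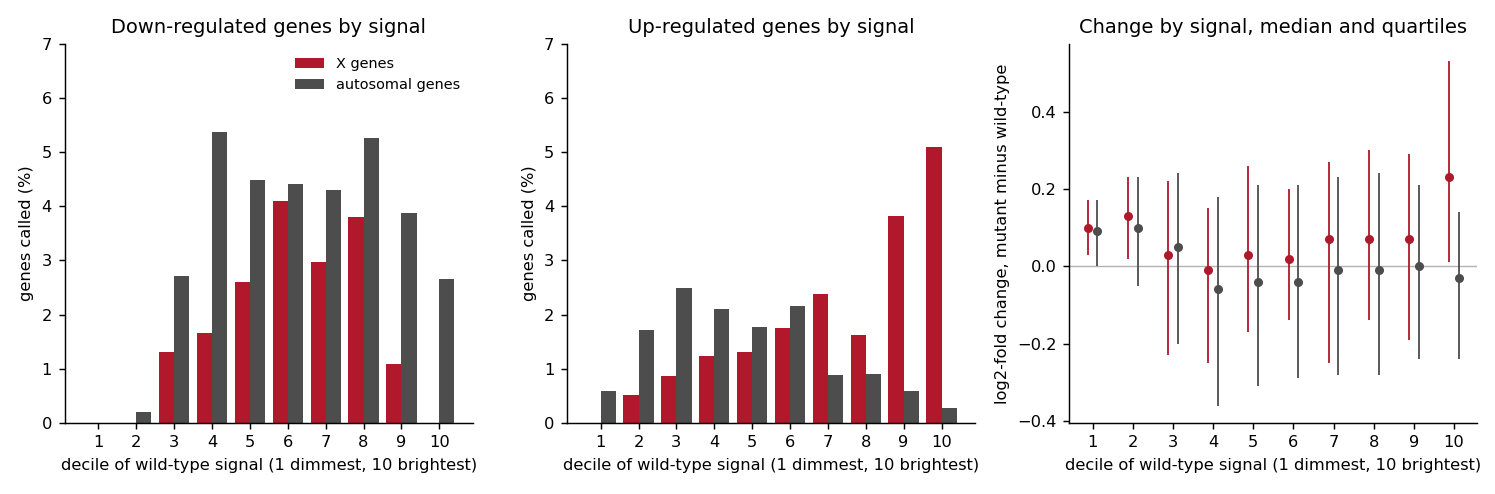
Percentage of down-regulated (left) and up-regulated (middle) genes, and the median log2-fold change with its quartiles (right), in each decile of wild-type signal intensity. Red stands for X genes and grey for autosomal genes, and the X genes of the brightest decile have a median of 0.23 against -0.03 for the autosomal genes.

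Smaller changes showed the same direction. Counting all significant changes whatever their size, 266 X genes were lower in the mutant, or 14.2%, against 19.3% over all genes, and 370 were expected from brightness. Higher signals were found for 496 X genes, or 26.5%, against 22.7% over all genes, with 413 expected. All mutant arrays lay below all wild-type arrays for 172 X genes, or 9.18%, where the percentage over all genes was 13.9%. They lay above all wild-type arrays for 344 X genes, or 18.4%, where it was 16.2%. The median log2-fold change was 0.07 for X genes and 0.02 for autosomal genes. Relative to the autosomal median of its own decile, the median X gene was higher by 0.050 on the log2 scale, a shift far below the 2-fold minimum. These splits depend on the scaling of the arrays. With each array centred on its median, the median of all genes moved from 0.026 to 0.129, 32 X genes were down-regulated and 44 up-regulated, and 175 were lower and 736 higher. Fewer changes were significant on the smaller sets of arrays. When the arrays bright in gut enzymes were omitted, 155 X genes were lower and 278 higher, and for *Ebp* 80 were lower and 164 higher. No counts of lower and higher genes over all genes stand beside those of these fits and of the centred arrays.

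The same ratio was formed on single arrays, each set against the mean of the wild-type arrays. Counting X genes at least 2-fold down, it was 0.69, 0.66, 0.51, 0.66 and 0.71 on the mutant arrays (0.647 ± 0.079, SD, n = 5). When each wild-type array was set against the other 4 in the same way, few X genes were 2-fold down on replicates 1, 3 and 4, with 3, 0 and 2 genes. On wild-type replicates 2 and 5 there were 32 and 41 such X genes, and the ratios were 0.67 and 0.90. The ratios of mutant and wild-type arrays therefore overlapped, and an X deficit of the size on mutant arrays also occurred between wild-type arrays. Counting X genes at least 2-fold up, the ratio was 1.23, 1.27, 0.56, 0.84 and 0.99 on the mutant arrays (0.977 ± 0.29, SD, n = 5). On the wild-type arrays it was 0.72, 0.43, 0.70, 0.56 and 0.00, from 25, 2, 48, 5 and 0 X genes. These ratios overlapped as well. The median difference from autosomal genes of the same decile did not overlap, with 0.048 to 0.059 on the mutant arrays and -0.014 to 0.029 on the wild-type arrays.

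**Figure D2:**
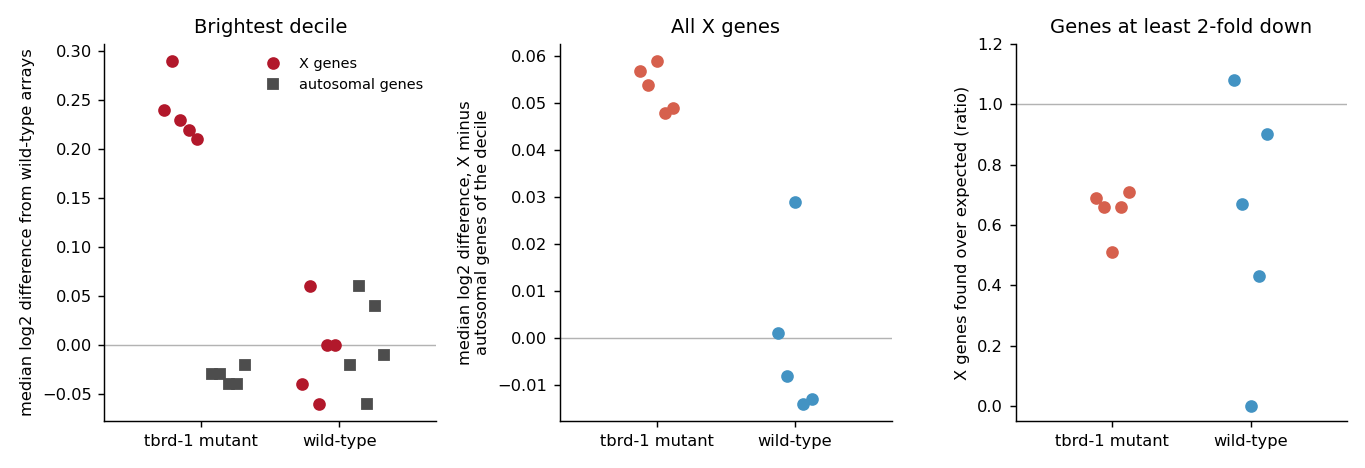
Values of single arrays, mutant on the left and wild-type on the right of each plot, with 1 point for each array and gene set. Left, the median log2 difference from the wild-type arrays in the brightest decile for X (red circles) and autosomal genes (grey squares); middle, the median difference of all X genes from autosomal genes of their decile; right, the ratio of X genes found to X genes expected at least 2-fold down. The 5 mutant arrays lie above the wild-type arrays for X genes in the left and middle plots and overlap with them in the right plot.

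The brightest decile, with mean wild-type intensities from 2064 to 22946, held few X genes. They made up 98 of its genes, or 8.24%, whereas in the other deciles X genes made up 14.1% to 20.3%. This decile was not singled out in advance, and of all deciles it had the widest gap between the X and autosomal medians. Of these 98 bright X genes 51, or 52%, were significantly higher in the mutant, and 6 were significantly lower. Of the 1091 bright autosomal genes, 202 were higher, or 18.5%, and 328 were lower, or 30.1%. The percentage higher was 21.1% on 2L, 18.6% on 2R, 17.1% on 3L and 17.1% on 3R. The median log2-fold change was 0.23 for the bright X genes and -0.03 for the bright autosomal genes. On single arrays the median of the bright X genes relative to wild-type was 0.24, 0.29, 0.23, 0.22 and 0.21 in the mutant (0.24 ± 0.03, SD, n = 5), and lay between -0.06 and 0.06 on the wild-type arrays. Autosomal genes of this decile had medians between -0.04 and -0.02 on the mutant arrays. Without the arrays bright in gut enzymes, 43 of 100 bright X genes were significantly higher, or 43%, against 7.62% of the bright autosomal genes. Without those bright in *Ebp* it was 36 of 99, or 36.4%, against 3.94%, and 0 of these bright X genes were significantly lower. Of 11 germ cell markers, 3 were higher on all mutant arrays than on all wild-type arrays and 1, *can*, was lower. Their summed intensity was 34663 to 38408 in the mutant and 29196 to 32446 in wild-type, most of it from *Mst77F*. The part of this difference in the result for the bright X genes was not tested.

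At the 2-fold minimum, 5 of the bright X genes were up-regulated, or 5.1%, and 0 were down-regulated by limma or by the methods' t-test, a test that 1 legend of the study names beside the limma of another. At an unadjusted p under 0.05, 7 of them were lower in limma. Of the bright autosomal genes 3 were up-regulated, or 0.275%, and 29 were down-regulated, or 2.66%. In the next decile, from 910 to 2063, 7 of 183 X genes were up-regulated and 2 were down-regulated, against 6 and 39 of 1006 autosomal genes. In each of the 4 brightest deciles the percentage of up-regulated genes was higher for X genes than for autosomal genes, with 2.38% against 0.881% and 1.63% against 0.896% in the dimmer 2 of them, and in each of the other 6 deciles it was lower. The percentage of down-regulated genes was lower for X genes in 9 deciles and 0 for both in the dimmest. Without the brightest 2 deciles, in a comparison chosen after seeing the data, 19 X genes were up-regulated and the ratio to the expected number was 0.73. The deficit of down-regulated X genes was also found without them, with 32 found and a ratio of 0.59.

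The brightest X genes with larger increases mostly carry no name beyond a CG number. *SdhBL* is a paralog of the iron-sulfur subunit of succinate dehydrogenase, an enzyme of the mitochondrial citric acid cycle. Its signal was 5863, 7298, 5582, 5228 and 6972 on the mutant arrays, against 2401, 2240, 2523, 2477 and 2049 on the wild-type arrays (log2-fold change 1.40, standard error 0.10, limma adjusted p = 1.4e-06). *CG15208* had 7754, 7676, 7483, 6947 and 7630 in the mutant, against 3074, 3089, 3188, 3214 and 2919 in wild-type (1.28, standard error 0.05, adjusted p = 2e-08). The groups stood well apart for both genes, and the lowest mutant array was more than 2-fold above the highest wild-type array. The other bright X genes past the 2-fold minimum were *CG11068*, *CG12689* and *CG3323*, with log2-fold changes of 1.07, 1.06 and 1.06. The call of *CG3323* ended without the 5 arrays bright in *Ebp*, where its change was 0.92 (adjusted p = 0.0075).

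Many other bright X genes were higher by less than 2-fold. *TrxT* encodes a testis-specific thioredoxin, and its signal of 13833, 14311, 14201, 12993 and 13617 in the mutant, against 10492, 10712, 9934, 10748 and 10069 in wild-type, corresponded to a log2-fold change of 0.41 (limma adjusted p = 9.6e-05). The brightest X gene, *CG1394*, had 17633 to 18722 on the mutant arrays and 13038 to 14124 on the wild-type arrays, a change of 0.43. *hydra*, a gene with testis expression, also changed by 0.43, with 7207 to 8165 in the mutant and 5440 to 6169 in wild-type. None of these 3 genes, picked after their values were seen, overlapped between the genotypes. All mutant arrays lay above all wild-type arrays for 46 of the 98 bright X genes, or 46.9%. This share was 15.8% for the bright autosomal genes and 16.2% over all genes. Larger changes were those of *CG15306* with 0.92, the long noncoding RNA genes *lncRNA:CR33218* with 0.91 and *lncRNA:CR32690* with 0.76, and *CG15200* with 0.82. Of the 56 bright X genes with a CG number only, 39 were higher and 3 lower, with a median of 0.44. Of the 42 with another name, 12 were higher and 3 lower, with a median of 0.05. The bright autosomal genes did not show this split, with medians of -0.04 for 556 genes with a CG number only and -0.03 for 535 others.

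**Figure D3:**
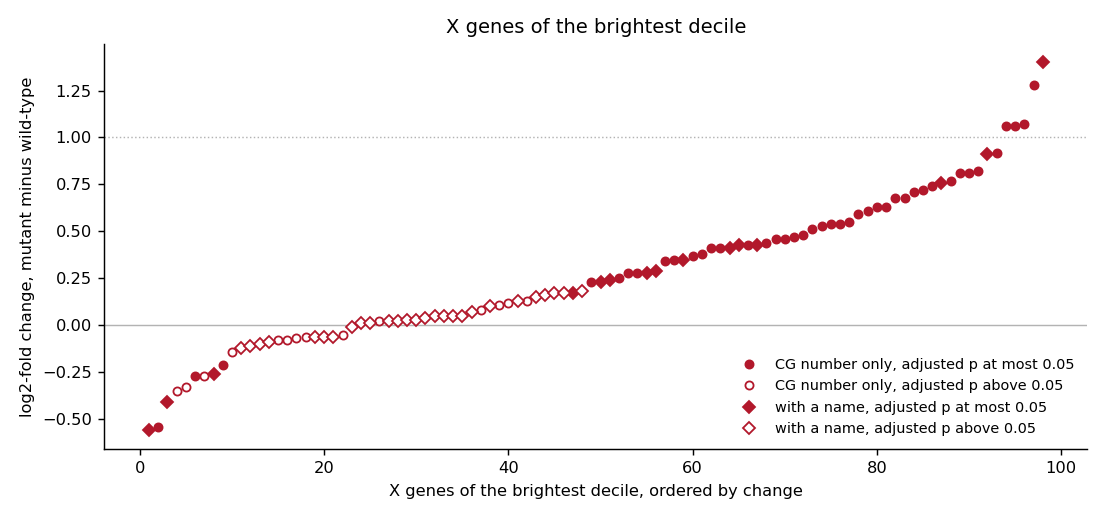
Log2-fold changes, mutant minus wild-type, of the 98 X genes of the brightest decile, ordered by their change. Circles are genes with a CG number only, diamonds are genes with another name, filled symbols are significant in limma, and the dotted line marks the 2-fold minimum. The 5 genes above that line are *SdhBL*, *CG15208*, *CG11068*, *CG12689* and *CG3323*.

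The bright X genes that were lower in the mutant were few. *regucalcin*, a calcium-binding protein gene, had signals of 3142 to 4688 on the mutant arrays and 5249 to 6219 on the wild-type arrays, without overlap (log2-fold change -0.56). *sesB*, which encodes the mitochondrial ADP/ATP carrier, had a change of -0.41, with 2940 to 3467 in the mutant and 3370 to 5610 in wild-type. Its paralog *Ant2*, also on X, had 3746 to 4103 in the mutant and 3348 to 3754 in wild-type, a change of 0.13 (limma adjusted p = 0.087). Both *sesB* and *Ant2* overlapped by a small margin between the genotypes.

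Of the down-regulated X genes, 28 of 34 had all mutant arrays below all wild-type arrays. The percentage over all X and autosomal genes, called or not, was 13.9%. The calls were made on the same arrays and favour such separation, so it is no added evidence. The median log2-fold change of the down-regulated X genes was -1.42, against -1.37 for the down-regulated autosomal genes. At least 4-fold lower were 10 of the 1873 X genes and 75 of the 10016 autosomal genes. The X count was 0.73 times the number expected from brightness. The largest decrease was that of *Yp3*, which encodes a yolk protein made by fat body and follicle cells of females. Its signal was 42, 35, 38, 42 and 28 on the mutant arrays, against 245, 528, 778, 550 and 627 on the wild-type arrays (log2-fold change -3.80, standard error 0.26, limma adjusted p = 9.5e-07). By qPCR the study also reported less *Yp3* transcript in mutant testes than in wild-type testes. The same held against mutant testes with a *tbrd-1-eGFP* transgene. Of the 5 fat body markers measured, *Yp3* was the one whose genotypes did not overlap. Their summed intensity, which includes *Yp3*, was 263 to 332 in the mutant and 513 to 1045 in wild-type. The other fat body markers, *Lsp2*, *Yp2*, *Fbp1* and *Yp1*, had log2-fold changes of -0.24, 0.16, 0.16 and 0.21. The part of fat body RNA or of the lower muscle sum in the down-regulated X genes was not tested. *Yp1* and *Yp2*, the other yolk protein genes of X, lay at 14 to 21 and 37 to 41 in the mutant, and at 14 to 16 and 31 to 37 in wild-type. Of the 6 yolk and eggshell genes, the chorion gene *Cp36* was higher by 0.34 (limma adjusted p = 0.013) at a low wild-type mean of 32.6, and the other 4 did not pass the adjusted threshold. Without the arrays bright in *Ebp* the change of *Cp36* was 0.25 (adjusted p = 0.33).

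*RabX2*, a member of the Rab family of small GTPases, had 39, 37, 45, 35 and 46 in the mutant, against 311, 480, 320, 356 and 349 in wild-type (log2-fold change -3.16, standard error 0.12, limma adjusted p = 1.3e-08). *CG14635* had 108, 105, 122, 148 and 61 in the mutant, against 930, 1229, 808, 884 and 1354 in wild-type, a change of -3.29. For both genes even the brightest mutant array was below the dimmest wild-type array by more than 4-fold. *CG2157*, a gene with no name, had 46, 34, 46, 50 and 49 in the mutant, against 267, 379, 237, 276 and 308 in wild-type, a change of -2.70. *CG12061* had 207, 195, 178, 187 and 233 in the mutant, against 827, 877, 771, 888 and 817 in wild-type, a change of -2.07 with the narrow spread of 21.3 (SD, n = 5) among mutant arrays. *CG15449* had 42, 41, 48, 37 and 48 in the mutant, against 151, 229, 159, 176 and 206 in wild-type, a change of -2.08. These genes were picked for values from those whose groups did not overlap, so their separation is no added evidence. Low mutant signals carry no detection call, which leaves the size of a change uncertain. This holds for *Yp3* (mutant mean 37), *RabX2* (40.4), *CG2157* (45) and *CG15449* (43.2), and likewise for *CG14219* (20), *Mks1* (30), *zyd* (31.8), *Lcch3* (16.2), *arg* (20.4), *meso18E* (41.6), *CG11816* (22), *CG12645* (49.6) and *CG15890* (46.4).

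*CG32712* had 135, 122, 192, 170 and 82 in the mutant, against 487, 641, 476, 504 and 721 in wild-type, a change of -2.05 (standard error 0.21). *Ldsdh1*, which encodes a dehydrogenase of lipid droplets, had 214, 235, 272, 339 and 238 in the mutant, against 993, 677, 1288, 708 and 757 in wild-type, a change of -1.74 (standard error 0.18). *CG14219* and *Mec2*, which encodes a stomatin family protein of nephrocytes, varied more among the wild-type arrays. *CG14219* had 21, 19, 25, 19 and 16 in the mutant, against 147, 47, 330, 103 and 52 in wild-type, a change of -2.40. *Mec2* had 43, 70, 107, 85 and 44 in the mutant, against 333, 185, 437, 251 and 164 in wild-type, a change of -1.97. Wild-type replicate 3 was the highest array for both genes and for *Ldsdh1*. Without the 5 arrays bright in *Ebp*, the adjusted p from limma was 0.053 for *CG14219* and 0.079 for *Mec2*, so that neither remained called.

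**Figure D4:**
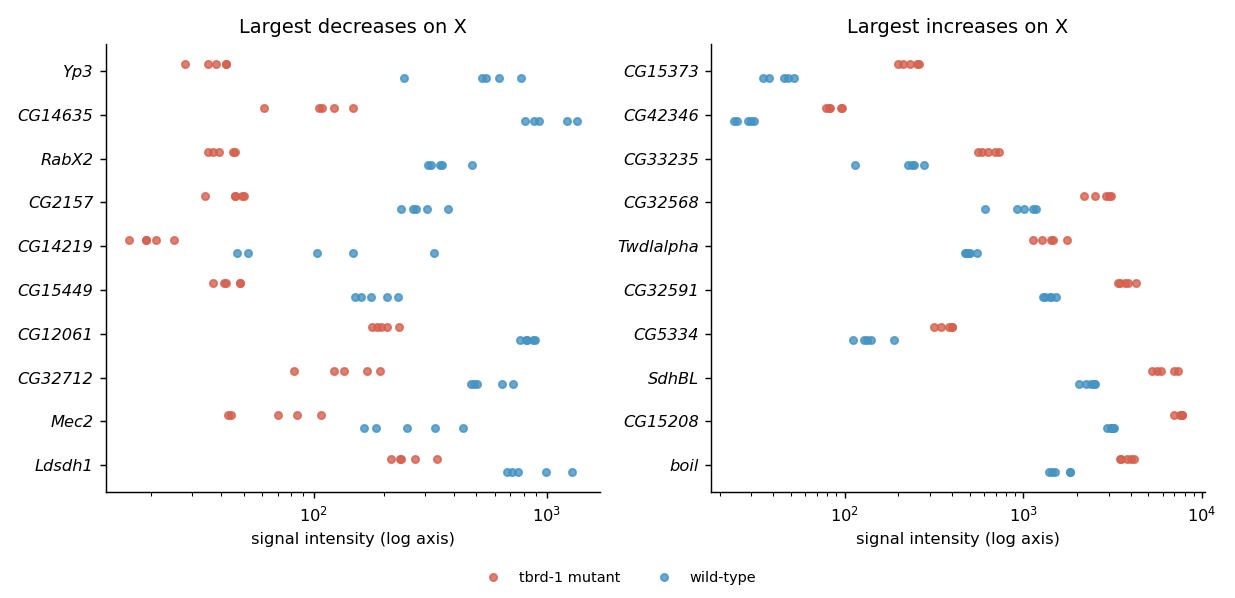
Signal intensities of single arrays, on a log axis, for the 10 X genes with the largest decreases (left) and the 10 with the largest increases (right) among called X genes whose genotypes did not overlap. Each gene has 5 mutant arrays in red above 5 wild-type arrays in blue, and the largest changes are those of *Yp3* with -3.80 and of *CG15373* with 2.41.

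Among the down-regulated X genes with known roles were *Mks1* with a log2-fold change of -1.66, a gene of the ciliary transition zone, and 2 genes of the actin cytoskeleton. These were *Arpc3B*, a subunit gene of the actin-nucleating complex with the Arp proteins, with -1.45 and the actin bundling protein gene *Fim* with -1.11. *Mks1* had 27 to 35 in the mutant and 86 to 105 in wild-type, and *Fim* had 297 to 408 in the mutant and 713 to 776 in wild-type. Membrane transport was represented by *zyd*, a sodium and calcium exchanger gene, with -1.72, and *NAAT1*, an amino acid transporter gene, with -1.24. *Lcch3*, which encodes a subunit of a GABA-gated channel, changed by -1.37, and *Ykt6*, which encodes a protein of vesicle fusion, by -1.16. *B-H2*, a homeobox transcription factor gene, had 81 to 104 in the mutant and 173 to 263 in wild-type, a change of -1.24. *NAAT1* lost its call without the arrays bright in *Ebp* (-1.04, adjusted p = 0.054), whereas the calls of *Mks1*, *Arpc3B*, *Fim*, *zyd*, *Lcch3*, *Ykt6* and *B-H2* held under all 22 alternative fits.

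*Cyp4g1* encodes the cytochrome P450 of oenocytes that makes cuticular hydrocarbons. It had 119, 23, 189, 715 and 260 in the mutant, against 877, 563, 1250, 782 and 944 in wild-type (log2-fold change -2.44, standard error 0.71, limma adjusted p = 0.02). Mutant replicate 4 lay within the range of the wild-type arrays, and the adjusted p of *Cyp4g1* was 0.27 once the 4 arrays bright in gut enzymes were left out, and 0.056 by the methods' t-test. The arginase gene *arg* changed by -1.20 and *Acat1*, which encodes an acetyl-CoA acetyltransferase, by -1.11. Without wild-type replicate 3 *Acat1* changed by -0.98, and its change was -0.92 with the 4 gut-bright arrays omitted, both below the 2-fold minimum. *CG3106* (-2.29), *CG42249* (-1.53) and *CG32695* (-1.04) were highest on wild-type replicates 1 and 3, where gut genes were also brightest, and overlapped between the genotypes. They were not called without the arrays bright in gut enzymes, with changes of -1.11, -0.57 and -0.71 and adjusted p-values of 0.26, 0.28 and 0.32. Leaving out 1 array was enough to end these calls. *CG3106* lost it without mutant replicate 1, 4 or 5 or wild-type replicate 1, 3 or 4 (-2.33 to -1.85), *CG42249* without mutant replicate 1, 2, 4 or 5 or wild-type replicate 1, 3 or 4 (-1.62 to -1.20), and *CG32695* without mutant replicate 1 or 5 or wild-type replicate 1 or 3 (-0.98 to -0.85). The other down-regulated X genes were *meso18E*, *Rbm13*, *CG11666*, *CG11816*, *CG12645*, *CG14629*, *CG15890*, *CG40486*, *CG6067* and *CG8958*, with changes from -1.47 to -1.08. Without the arrays bright in gut enzymes, *CG40486* (-1.45, adjusted p = 0.14), *CG14629* (-1.03, adjusted p = 0.16) and *CG6067* (-0.95) were not called, nor was *CG11816* without those bright in *Ebp* (-1.03, adjusted p = 0.06) or *CG8958* after median centring (-0.97). Without the arrays bright in *Ebp*, *CG3106* (-1.36), *CG42249* (-1.05), *CG32695* (-1.09), *CG14629* (-0.94) and *CG6067* were not called either, with adjusted p-values from 0.062 for *CG6067* to 0.51 for *CG3106*. *CG40486* and *CG42249* each had a dimmer probe set that was not called, with -0.32 and -0.13.

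All 31 up-regulated X genes had every mutant array above every wild-type array. The percentage over all X and autosomal genes, called or not, was 16.2%. This separation too is favoured by the calls, which were made on the same arrays. The up-regulated X genes had a median log2-fold change of 1.15 and a median wild-type intensity of 498. For the up-regulated autosomal genes these were 1.28 and 112. At least 4-fold higher were 1 of the 1873 X genes and 19 of the 10016 autosomal genes. The X count was 0.25 times the number expected from brightness. The X gene was *CG15373*, with 255, 198, 212, 262 and 232 in the mutant, against 38, 46, 35, 52 and 48 in wild-type (log2-fold change 2.41, standard error 0.12, limma adjusted p = 8.9e-08). *CG42346* had 82, 79, 97, 95 and 83 in the mutant, against 25, 24, 29, 30 and 31 in wild-type, a change of 1.65. The wild-type signals of both genes were low, and a second probe set of *CG42346* changed by 0.08 and was not called. *CG33235* had 635, 735, 559, 586 and 695 in the mutant, against 244, 237, 225, 279 and 115 in wild-type, a change of 1.60 that lost its call without the arrays bright in *Ebp* (1.59, limma adjusted p = 0.072).

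Other large increases were found for *CG32568* and for its neighbour among the measured X genes, *Twdlalpha*, a cuticle protein gene of the Tweedle family. *Twdlalpha* had 1426, 1751, 1125, 1263 and 1468 in the mutant, against 492, 469, 479, 550 and 502 in wild-type (log2-fold change 1.48, standard error 0.11, limma adjusted p = 1.3e-06). *CG32568* had 2899, 3101, 2518, 2170 and 2994 in the mutant, against 918, 1172, 1012, 1139 and 608 in wild-type, a change of 1.52. Neither gene overlapped between the genotypes, which the choice of genes for values required. *CG32591* had 3683, 4286, 3485, 3362 and 3867 in the mutant, against 1319, 1516, 1423, 1414 and 1295 in wild-type, a change of 1.42. *boil* had 3818, 4171, 3455, 3531 and 3979 in the mutant, against 1493, 1818, 1443, 1823 and 1385 in wild-type, a change of 1.26. The dimmer *CG5334* had 401, 398, 317, 344 and 383 in the mutant, against 111, 188, 129, 140 and 133 in wild-type, a change of 1.41. In each of these genes the wild-type arrays lay below the mutant arrays, again as the choice of genes required.

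Among the smaller increases, *Trf2* encodes a TBP-related general transcription factor. It had 870, 1115, 830, 871 and 964 in the mutant, against 409, 402, 439, 443 and 343 in wild-type, a change of 1.19 (standard error 0.10, limma adjusted p = 3.2e-06). *mud*, which encodes a spindle-orienting protein related to NuMA, had 1171 to 1818 in the mutant and 481 to 716 in wild-type, a change of 1.15, and its 2 other probe sets were called as well, with 1.38 and 1.99. *BORCS5*, a gene for a protein of lysosome positioning, changed by 1.15, the calnexin gene *Cnx14D* by 1.10, *rdgB*, a phosphatidylinositol transfer protein gene, by 1.05 and the MAP kinase gene *Erk7* by 1.01. These changes lay close to the 2-fold minimum. *BORCS5* was not called without the arrays bright in gut enzymes (0.98). Without wild-type replicate 5, *Cnx14D* changed by 0.94, *rdgB* by 0.95 and *Erk7* by 0.95, and *Erk7* also lost its call without mutant replicate 2 (0.96), mutant replicate 5 (0.97) or wild-type replicate 2 (0.97). A dimmer probe set of *rdgB* changed by 0.42. The remaining up-regulated X genes were *ccb* (1.06) and 11 genes with a CG number only, which changed by 1.04 to 1.25. Among these, *CG34434* changed by 1.17 and lost its call without wild-type replicate 5 (0.96). Near the 2-fold minimum, *CG43075* lost its call without wild-type replicate 1 (1.00) or 3 (0.98), *CG12446* without mutant replicate 2 (1.00) or wild-type replicate 3 (1.00), and *CG12206* and *CG14190* without mutant replicate 2 (0.99 each). Without the arrays bright in *Ebp*, the changes of *CG5877* (0.98), *CG12446* (0.92), *CG43075* (0.92), *CG14190* (0.88), *Erk7* (0.86), *CG12206* (0.84) and *CG12692* (0.81) were below the 2-fold minimum, and those of *Cnx14D* (1.27, adjusted p = 0.061) and *CG34434* (1.40, adjusted p = 0.063) did not pass the adjusted threshold. Without the arrays bright in gut enzymes, *CG43075* changed by 0.96 and *CG34434* by 1.36 (adjusted p = 0.064), so that neither was called.

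Genes with a CG number only made up 47% of the X genes, 50% of the down-regulated X genes and 67.7% of the up-regulated ones. The gene lists of X that follow are described by their counts and medians, which stand beside 22.7% significantly higher and 19.3% significantly lower genes and a median of 0.026 over all X and autosomal genes. Most of their significant changes were under 2-fold. Of 37 such list members, 37 kept their direction without either set of arrays. The remaining arrays had also served to select these members, so the kept direction is no added evidence. Of the 37, 16 were significant with the gut-bright arrays omitted and 8 with the *Ebp*-bright arrays omitted. These 8 were *Cyp28c1*, *Cyp4ae1*, *HP1b*, *TrxT*, *fs(1)N*, *lncRNA:CR32690*, *lncRNA:CR33218* and *swa*. Of 11 germline, egg and sex determination genes, 2 were significantly higher, 1 was lower and 8 did not pass, with a median of 0.05, so that neither share was above that over all genes. The largest change was that of *fs(1)N*, a gene of the egg membrane, with 0.99 (limma adjusted p = 3.4e-05), followed by *swa*, a gene for RNA localization in the egg, with 0.59. *ovo*, a germline transcription factor gene, fell by 0.38 and was dim, with a mean of 16.6 in wild-type. The switch gene of female sex determination, *Sxl*, changed by -0.24 (adjusted p = 0.078).

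Of 9 male germline genes on X, 4 were significantly higher by less than 2-fold and 0 were lower in limma, with 3 and 0 by the methods' t-test and 4 and 1 at an unadjusted p under 0.05, where 22.7% of all genes were higher and 19.3% lower in limma. The median of the list was 0.07. Besides *TrxT*, the higher genes were *Sdic1*, a sperm dynein gene, with 0.30, *Hira*, a histone chaperone gene, with 0.28 and the kinesin gene *Klp10A* with 0.28. *nod*, another kinesin gene and a member of the meiosis list, had a change of -0.37 (adjusted p = 0.055). Among 5 meiosis and repair genes 1 was significantly higher, the checkpoint kinase gene *mei-41* with 0.25. *Sdic1* and *Sdic3* are near-identical copies, so that their signals may be shared and are uncertain.

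Of 10 dosage compensation and chromatin genes, 3 were significantly higher and 2 lower, all by less than 2-fold, with a median of 0.13. These shares were near the 22.7% and 19.3% over all genes. *mof*, the acetyltransferase gene of the dosage compensation complex, changed by 0.21 (limma adjusted p = 0.027). *e(y)3*, a chromatin gene, changed by 0.53 and *HP1b*, a heterochromatin protein gene, by -0.54 (adjusted p = 7.9e-05). *Top1*, the topoisomerase gene, was higher by 0.25 and *Usp7*, a ubiquitin protease gene, fell by 0.25. In the list of signalling and patterning genes, 3 of 7 were higher and 1 lower, against the same percentages, with *fog*, a secreted signal of gastrulation, at -0.46 and the potassium channel subunit gene *Hk* at 0.43. Of 6 eye pigment and body colour genes, *rb* and *dor*, which act in vesicle trafficking, were higher by 0.44 and 0.32, and *y* had 0.18 (adjusted p = 0.16). *white* was on this list but is not among the X genes measured here, so the counts of X genes do not include it. The study reported *white* as significantly up-regulated in the mutant, owing to the copy on the inserted transposon.

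Among the other gene families, 1 cytochrome P450 gene was down-regulated and 1 cuticle protein gene up-regulated, where 3.08% of all genes were down-regulated and 1.38% up-regulated. Of 14 cytochrome P450 genes, 4 were lower and 2 higher, against 19.3% and 22.7% over all genes, with a median of -0.29, and *Cyp4g1* was the one past the 2-fold minimum. *Cyp4d1*, *Cyp4s3* and *Cyp4ae1* fell by 0.86, 0.80 and 0.57, and *Cyp4d14* had a change of -0.79 (limma adjusted p = 0.41). Of 8 cuticle protein genes 2 were higher, a share near the 22.7% over all genes, namely *Twdlalpha* and *Cpr5C* with 0.17. *Obp8a*, an odorant-binding protein gene with a wild-type mean of 344, was higher by 0.89, and *Obp19c* by 0.31, the other 4 of its 6 measured members not passing the adjusted threshold. The 21 chemoreceptor genes were dim, with wild-type means from 10 to 38.6, and 4 of them were higher, a share not above the 22.7% over all genes, such as the sugar receptor gene *Gr5a* with 0.57. The 3 ribosomal protein genes *RpL37-1*, *RpS28b* and *RpL17* had changes of -0.06, -0.06 and 0.02 and overlapped between the genotypes. Of the 5 proteasome genes, *Prosbeta2R1*, a testis paralog, was higher by 0.29, and the others lay between -0.13 and 0.06. Neither of the 2 glutathione S-transferase genes passed the adjusted threshold, with *GstT4* at -0.34 and *GstT3* at -0.10. Of 4 dynein and axoneme genes, *Sdic1* was the one that passed. Among 4 larval secreted protein genes *ng2* was higher by 0.29, at a wild-type mean of 19.6. Of 8 noncoding RNA genes, 2 were higher, 1 was lower and 5 did not pass the adjusted threshold, shares near those over all genes.

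Called genes were spread along the chromosome. When the X genes were divided by gene order into 10 groups of 187 or 188 neighbours, the groups held 0 to 7 down-regulated and 0 to 7 up-regulated genes. The first group, from *CG17636* to *Unc-76*, held 4 down-regulated and 0 up-regulated genes, although 56 of its genes were significantly higher and 25 lower. The group after it, from *csw* to *pon*, held 0 down-regulated and 3 up-regulated genes, with 45 higher and 29 lower. The most up-regulated genes, 7, were found from *dmrt11E* to *CG12379*, and the most down-regulated ones, 7, in the last group, which starts at *CG12204*. The median log2-fold change was between 0.02 and 0.10 in all 10 groups.

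**Figure D5:**
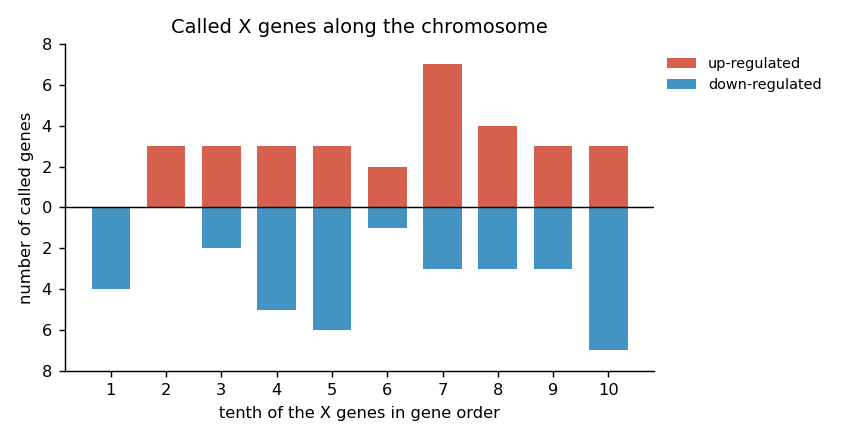
Number of up-regulated (red, upward) and down-regulated (blue, downward) X genes in 10 groups of neighbouring X genes, in their order along the chromosome. Each group holds 187 or 188 genes, and the counts lie between 0 and 7 in both directions.

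Neighbours here are genes next to each other in order among the X genes with a probe set. Genes without a probe set may lie between them. Neighbouring X genes that were called in the same direction were *CG32568* and *Twdlalpha*, *Fim* and *B-H2* (-1.11 and -1.24), and *zyd* and *CG12061* (-1.72 and -2.07). Among all significant changes, longer runs were found. The genes *CG1394*, *CG15200*, *CG11106*, *CG44422* and *CG15198* follow each other among the measured X genes and were all higher, by 0.31 to 0.82. *CG1394*, *CG15200*, *CG11106* and *CG15198* belong to the brightest decile. Another 5 neighbours from *CG43075* to *CG5877* were higher by 0.21 to 1.06, and the run from *shtd* to *Alg14* by 0.16 to 0.66. Runs of 4 lower genes were those from *CanB* to *spoon* (-1.24 to -0.18), from *kirre* to *CG14416* (-0.93 to -0.24) and from *zyd* to *CG17163* (-2.07 to -0.31). In all, 10 runs of at least 4 neighbours were higher and 3 were lower, among 26.5% higher and 14.2% lower X genes.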

How the data were processed

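The authors deposited signal intensities for 18952 probe sets on 10 arrays. The submitters' processing notes name RMA, which corrects background, equalizes array distributions and summarizes probes, and Affymetrix Expression Console, without versions. Intensities are linear, rounded and without detection calls, and precision is limited by the number of arrays. After leaving out 183 control probe sets, the log2 intensities of the other 18769 were fitted here by limma 3.58.1 (lmFit, eBayes; R 4.3.3) with genotype as the one term, adjusting p-values over the whole table by Benjamini-Hochberg. The thresholds were an adjusted p not above 0.05 and, for up- and down-regulation, a log2-fold change of 1 or more in size. A legend of the study names limma for calling genes, and the methods' t-test, which 1 other legend names, was an alternative. Genes came from the platform annotation, with 13647 probe sets of 1 gene, 402 of several and 4720 of none, and chromosomes and gene order from a Release 6 gene table matched by gene ID for 13544 probe sets. Start positions served to order the genes, and since no assembly is named in the files, no coordinates are given. Of 2705 X genes in that table, 1873 had a probe set, and 206 of them had more than 1. Calling and matching were tested on simulated data. Values were given for *tbrd-1*, for the 10 largest decreases and increases among called X genes whose genotypes did not overlap, and for the called members and up to 3 others of each X gene list; further genes of the brightest decile and the genes in runs were picked after their values were seen. The members, lists and tests were chosen with earlier results of these data known. Figures were made with Python 3.11.15 and matplotlib 3.10.9.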

Additional observations from a re-analysis of the deposited data

Results flagged for a closer look

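Of 52 sets of 5 arrays checked, 3 had 1 array far from the other 4, where chance alone flags about 1 in 20. *CG2157* had a signal intensity of 34 on mutant replicate 2, against 46 to 50 on the other mutant arrays. *CG33235* had 115 on wild-type replicate 5, against 225 to 279 on the other wild-type arrays. The ratio of X genes found to X genes expected at least 2-fold down was 0.51 on mutant replicate 3, against 0.66 to 0.71 on the other mutant arrays.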

How the results depend on the processing

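The ratio of down-regulated X genes found to those expected stayed below 1 under every alternative run, from 0.50 to 0.73, and the median difference stayed positive. The ratio of up-regulated X genes was below 1 under 4 alternatives. With array quality weights 54 X genes were down-regulated, with a ratio of 0.64 and a median difference of 0.057. Without a minimum on the fold change 266 X genes were down and 496 up (ratio down 0.72), at 1.5-fold 92 and 120 (0.65), and at 4-fold 10 and 1, with ratios of 0.73 and 0.25. Leaving out single arrays gave 31 to 51 down-regulated and 27 to 35 up-regulated X genes, ratios of 0.53 to 0.66 and 0.97 to 1.23 and a median difference of 0.046 to 0.054. The highest down ratios were 0.66 without wild-type replicate 2 and 0.65 without wild-type replicate 5, and 0.97 was found without wild-type replicate 5. The ratio up was 0.92 without the arrays bright in *Ebp*. The median difference was 0.060 with the dimmest probe sets left out, 0.042 without the arrays bright in gut enzymes, 0.059 without those bright in *Ebp*, 0.044 with every probe set of 1 gene, and 0.058 or 0.061 with deciles from all arrays or the mutant arrays. It was 0.071, 0.041 and 0.043 against 2L, 3L and 3R alone. Without the brightest 2 deciles, chosen after seeing the data, the ratio up was 0.73 and the median difference 0.042. The cause of these shifts was not tested. Under 22 alternative fits, 21 of the 34 down-regulated and 18 of the 31 up-regulated X genes kept their call throughout. Over the alternatives of single genes named, 76 values lost the call of up- or down-regulation, 13 gained it and 0 called values changed direction.

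The labels do not say whether the replicate numbers pair the arrays. Deviations of same-numbered arrays from their group means correlated at -0.315, -0.191, 0.482, -0.0489 and 0.281. Such values cannot settle whether same-numbered arrays were processed together, so the arrays were treated as unpaired. With the replicate number as a block, 41 X genes were down-regulated and 31 up-regulated, with ratios of 0.56 and 1.13 and a median difference of 0.050. Dim probe sets cannot be separated from background, which limits what can be said about the dimmest X genes.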
